A study of Mus musculus with 24 samples.

Results

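The histone cluster genes of mouse liver were taken as the rows of the deposited count table whose symbol begins with Hist1h, Hist2h, Hist3h or Hist4h and that hold a count above 0 in 6 or more of the 24 libraries. All 68 rows with such a symbol met that rule, so none fell just outside it, of 23240 rows in the table. They comprise 6 linker histone genes (H1), 18 of class H2A, 19 of class H2B, 12 of class H3 and 13 of class H4. After a filter on low counts 63 were tested, and 5 were not (Hist1h1a, Hist1h1b, Hist1h1t, Hist1h2aa and Hist2h4).

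The livers came from female NOD scid gamma (NSG) mice, an immunodeficient strain, with a labelled age of 8 weeks. All animals were injected in the tail vein 2 times per week for 5 weeks, and livers were collected 2 days after the final dose. The 4 groups of 6 libraries received phosphate-buffered saline (PBS) or about 10 µg per injection of extracellular vesicles (EVs, membrane particles shed by cells). The EVs are labelled as coming from MCF10A, a non-tumorigenic human breast epithelial line, from MCF10A with miR-122 (MCF10A/miR-122), or from MDA-MB-231, a human breast cancer line. For the last 2 of these groups the library names go against the treatment label, since each carries the name of the other EV source. Both are therefore called "labelled" groups here. Library numbers split the series into a first 12 (10464 to 10475, PBS and MCF10A EV) and a last 12 (10476 to 10487, the labelled groups). Set and treatment cannot be told apart in any comparison that crosses the sets. Only MCF10A EV against PBS, and the labelled groups against each other, lie within a set.

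Replication-dependent histones package newly made DNA and are transcribed mainly in S phase, from clusters in which many near-identical copies lie side by side. Their messages normally end not in a polyA tail but in a short conserved stem-loop, which is bound by the protein SLBP and formed by a processing machinery of their own. A minority of histone messages carries a polyA tail, as in resting and differentiated cells, and a kit that selects polyA RNA sees mainly these. Core histones H2A, H2B, H3 and H4 form the nucleosome, and H1 binds the DNA between nucleosomes. Adult liver holds mostly hepatocytes that rarely divide.

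The stem-loop letters are shown because they mark the messages that normally lack the tail the library kit selects. Each line gives 26 bases of a GENCODE M21 transcript (mouse GRCm38, another build than the mm9 of the deposited counts), with the 16 bases of the stem and loop in capitals.
Hist1h1c: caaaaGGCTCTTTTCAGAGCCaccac
Hist2h2aa1: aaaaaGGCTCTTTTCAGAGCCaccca
Hist1h2bk: ccaaaGGCTCTTTTAAGAGCCactaa
Hist2h3c1: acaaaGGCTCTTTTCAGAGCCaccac
Hist1h4i: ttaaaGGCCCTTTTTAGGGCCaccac
The letters searched, on the transcript strand, were the capitals of Hist1h1c and of Hist1h4i, with any base allowed at the 10th of the 16. They were found in 42 of the 68 genes (61.8%) and in 46 of 55341 annotated genes in all (0.0831%). By class the share ran from 52.6% (H2B, 10 of 19) to 69.2% (H4, 9 of 13). In 17 of the 42 the annotated transcript runs on for over 200 bases past the letters. It does so by 840 bases in Hist1h1c and 1167 in Hist2h3c1, against 35 in Hist2h2aa1. No match says only that these letters are not in the annotated transcript, as for Hist1h2bc and Hist1h2ak.

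The second set of sequences shows how alike the copies are. Over coding bases 151 to 250 of the GENCODE transcripts, Hist1h2ak differs from Hist1h2ab at 3 positions, in capitals, and the other 10 close copies of the Hist1 H2A family carry the same letters as Hist1h2ab.
Hist1h2ak: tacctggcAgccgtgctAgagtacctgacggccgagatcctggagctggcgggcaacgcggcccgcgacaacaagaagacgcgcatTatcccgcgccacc
Hist1h2ab: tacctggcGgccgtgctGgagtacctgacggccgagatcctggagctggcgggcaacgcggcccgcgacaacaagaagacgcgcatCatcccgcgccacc
Counted from 1 at the start codon, Hist1h2ak holds a base that none of those 11 copies has at 7 coding positions: 6, 10, 12, 159, 168, 237 and 368. A median of 54.3% of a member's 32-base words occurs in another member, and 38 members share at least 50% of theirs. The sharing was least in H1 (median 2.87%) and most in H2A (74.5%). How the authors assigned reads that map to several places is not given in the sources used here, so levels of such genes are uncertain. The deposited counts of some copies were near or fully equal. Hist1h2bq and Hist1h2br held the same count in all 24 libraries. Hist1h2ao and Hist1h2ap never differed by more than 1 count, and 11 pairs among 10 genes stayed within 5% of each other in every library. Members are therefore not independent of one another.

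Library totals ran from 21.3 to 33.7 M (mega) counts, and the 68 genes took 0.0652% to 0.125% of them. Levels are given as counts per M counts (CPM) on library sizes scaled by the trimmed mean of M values (TMM), and tests are edgeR quasi-likelihood F tests with Benjamini-Hochberg adjustment over the 13773 genes tested and a threshold of 0.05. The labels do not say outright that each library is a separate animal, so p-values measure the spread between these samples. Hepatocyte markers were high throughout, with 11 genes summing to at least 121305 CPM in every library. The small RNAs without a polyA tail that are in the table, 16 genes, summed to 11 to 40 counts per library, and none was tested.

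Summed over the 68 genes, PBS libraries held 866 to 1103 CPM (median 925) and MCF10A EV libraries 953 to 1309 (median 1204). The labelled MCF10A/miR-122 EV libraries held 632 to 991 CPM (median 717) and the labelled MDA-MB-231 EV libraries 699 to 934 (median 784). Thus the highest labelled library reached into the range of PBS, and the median order was MCF10A EV, PBS, labelled MDA-MB-231 EV, labelled MCF10A/miR-122 EV. Neighbouring groups in that order overlapped. In bulk tissue, fewer cells of a type and less RNA per cell cannot be told apart.

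**Figure D1:**
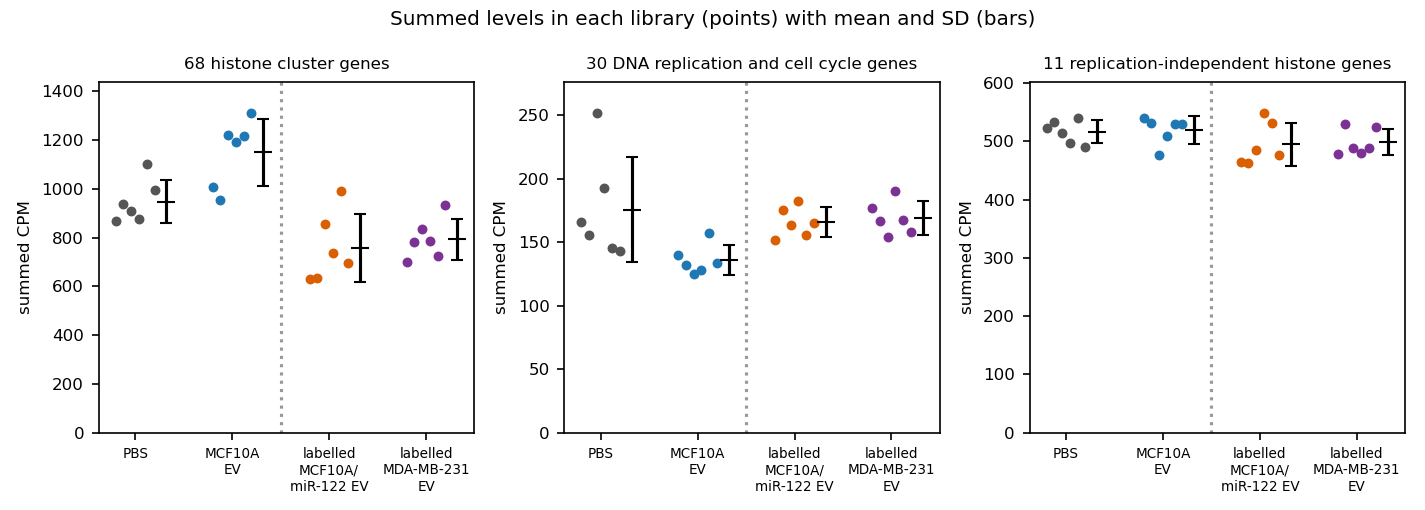
Summed CPM (vertical axis) in each library of the 4 groups (horizontal axis) for the 68 histone cluster genes, for 30 genes of DNA replication and the cell cycle, and for 11 genes listed as replication-independent histones. Points are libraries, bars are the mean and SD of 6, and the dotted line parts the first 12 from the last 12 libraries; histone medians were 925, 1204, 717 and 784 CPM from left to right.

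The amounts were very uneven among members. Per kilobase of the longest annotated transcript, Hist2h2aa1 averaged 213 CPM per kb and its neighbour copy Hist2h2aa2 190 CPM per kb. Next came the H2B genes Hist1h2bl (80.0 CPM per kb) and Hist1h2bc (66.6 CPM per kb). The highest genes of the other classes on this scale were the linker histone Hist1h1c (15.6 CPM per kb), the H3 gene Hist2h3c1 (10.3) and the H4 gene Hist1h4n (9.29). Hist1h4i, the H4 gene with the highest CPM, stood at 6.30 CPM per kb. Hist1h1b, an H1 gene, was lowest at 0.0389 CPM per kb. The length counts only as far as the annotation is right, since reads shared among copies and transcripts read past their end would alter it.

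Within the first set, every tested histone gene had a higher fitted level in MCF10A EV than in PBS, but no single gene passed the threshold. The log2 fold change was positive for 63 of 63, with a median of 0.27 and a range of 0.06 to 0.79, whereas 51.7% of all tested genes were positive, with a median of 0.01. Of the 63, 0 passed in edgeR, DESeq2 or limma-voom, and the share called among all genes in edgeR was 1.07%. At an unadjusted p of 0.05, 27 of 63 passed in edgeR against 17.3% of all genes: 10 of 12 H3 genes, 11 of 19 H2B, 6 of 17 H2A, and none of H1 or H4. Leaving out PBS replicate 5 gave 1 call, Hist2h3c2 (log2 fold change 0.56, adjusted p = 0.0204 by edgeR). Far more of all genes were called in that setting too, as given in the last section, so the call is not read as a histone result.

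For Hist2h2aa1, an H2A gene, PBS libraries ran from 109 to 144 CPM (median 120) and MCF10A EV libraries from 127 to 163 (median 147). All 6 EV libraries lay above the PBS median, yet the ranges overlapped. The log2 fold change was 0.26 (SE 0.09, edgeR adjusted p = 0.154). For Hist2h3c1, an H3 gene, PBS held 15.6 to 27.4 CPM (median 18.9) and MCF10A EV 20.0 to 35.2 (median 24.6). Again all 6 lay above the PBS median, with a log2 fold change of 0.39 (SE 0.16, edgeR adjusted p = 0.203). For Hist1h2bc, an H2B gene, PBS held 66.1 to 84.8 CPM (median 69.4) and MCF10A EV 68.6 to 110 (median 93.6), with 5 of 6 above the PBS median and an adjusted p of 0.230 by edgeR.

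Genes of S phase and division went the other way in the same comparison, where 1.07% of all genes were called in either direction. Of 29 tested genes of DNA replication and the cell cycle, all 29 had negative log2 fold changes (median -0.42) and 4 fell, none rose. They included the origin licensing factor Cdt1 (log2 fold change -1.30, edgeR adjusted p = 0.0152), the topoisomerase Top2a (-1.62, adjusted p = 0.0330) and the proliferation marker Mki67 (-1.62, adjusted p = 0.0397). PBS replicate 3 held the highest sum of this list, 252 CPM, where the other PBS libraries held at most 193. Without that library 1 gene fell and 28 of 29 were negative (median -0.32). Leaving out PBS replicate 1 or 4, or MCF10A EV replicate 1, 2, 3, 4 or 6, also left 1 or 2. Whether this list and the histone genes differ from one another was not tested.

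Between the 12 libraries of the last set and the 12 of the first, histone genes fell across all 5 classes. Of 63 tested, 55 fell and none rose, while 13.2% of all genes tested were called lower and 24.7% were called in either direction. The median log2 fold change was -0.78 over the histone genes and near 0 (0.003) over all genes. All 12 H3 and all 3 H1 genes fell, as did 16 of 17 H2A, 14 of 19 H2B and 10 of 12 H4. Medians were -1.39 for H2A, -1.21 for H3, -0.98 for H1, -0.59 for H4 and -0.37 for H2B. For 17 of the 63 the 12 last libraries all lay below the 12 first, against 0.748% of all genes tested. The filter on low counts was met by 5 of the 63 only through the first set (Hist1h3a, Hist1h3c, Hist3h2ba, Hist3h2bb-ps and Hist4h4), so that these could only differ downward. Of these, Hist3h2ba and Hist3h2bb-ps are among the 17 without overlap. Over the 58 that met it in 6 libraries of each set, 50 fell and none rose (median log2 fold change -0.63), against 13.2% called lower of the 13222 genes that did so. Of the 55 genes, 52 passed whichever single library was left out. Genes outside the family part the sets too: Serpina3a, a serine protease inhibitor, held at least 110 CPM in each of the first 12 libraries and at most 5.85 in each of the last 12.

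**Figure D2:**
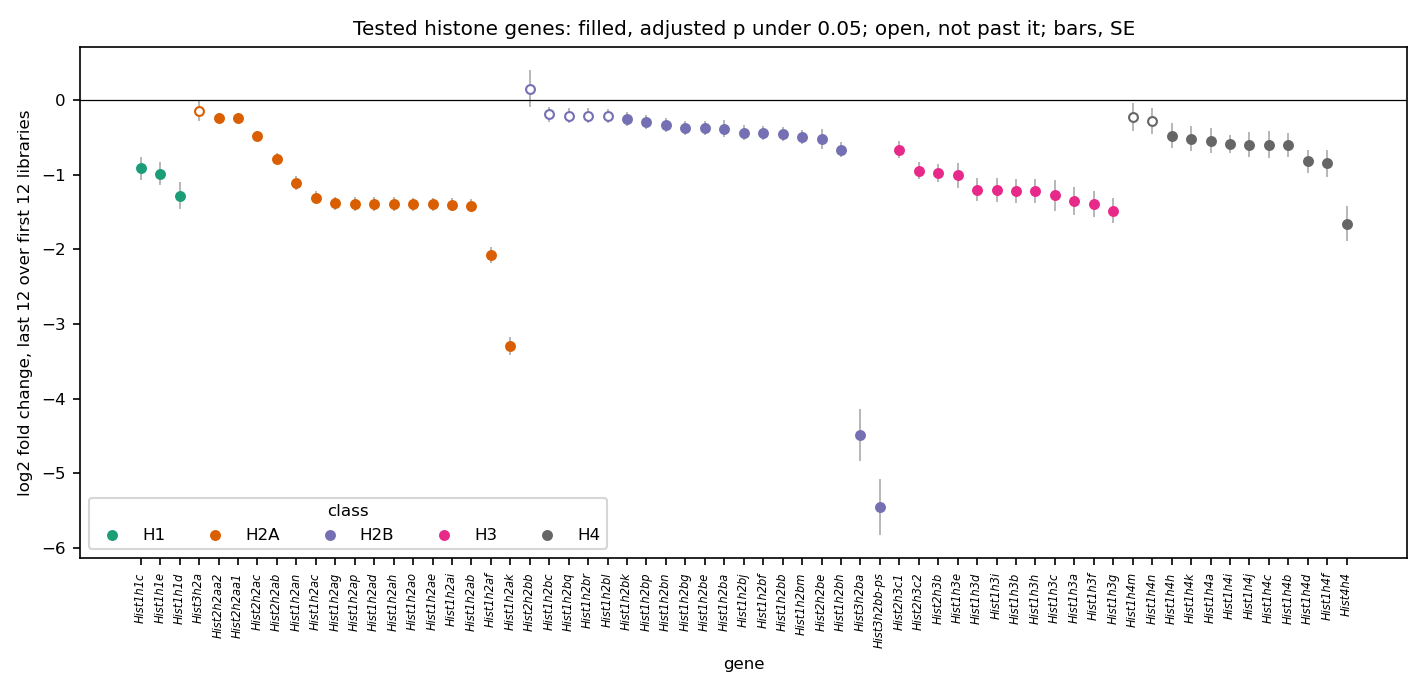
The log2 fold change of the last 12 over the first 12 libraries (vertical axis) for each of the 63 tested histone genes (horizontal axis), coloured by class and sorted within it. Filled points passed an adjusted p of 0.05 (55 genes, all lower), open points did not, and bars are SE. Hist1h3a, Hist1h3c, Hist3h2ba, Hist3h2bb-ps and Hist4h4 are plotted although they met the low-count filter only through the first set and could only differ downward.

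The linker histone Hist1h1c ranged from 18.7 to 46.7 CPM in the first 12 libraries (median 32.6) and from 11.7 to 24.3 in the last 12 (median 15.7). The sets overlapped, but all 12 last libraries lay under the first set's median. Its log2 fold change was -0.91 (SE 0.15, edgeR adjusted p = 1.03e-04). Hist1h1d and Hist1h1e, also H1 genes, fell by 1.28 and 0.98 on the log2 scale. Of these 3, Hist1h1d shares little sequence with other members (2.93% of its 32-base words).

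Hist2h3c1, the H3 gene with the most counts, has all its 32-base words in other annotated genes (35.4% in other members). It held 15.6 to 35.2 CPM in the first set (median 23.4) and 8.84 to 20.4 in the last (median 14.4). All 12 last libraries lay below the first set's median, although the ranges overlapped. Hist2h3c1 fell by 0.66 on the log2 scale (SE 0.11, edgeR adjusted p = 1.16e-04), the smallest fall of the class. The H3 gene Hist1h3g had the largest fall of its class, from 0.684 to 1.79 CPM down to 0.130 to 0.610 (median 0.393), with no overlap.

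H4 genes were measured on few reads. Hist1h4i, the highest by CPM, held 3.72 to 8.22 CPM (median 5.28) before and 2.77 to 4.50 (median 3.62) after the split by library number, and fell by 0.59 on the log2 scale (SE 0.12, edgeR adjusted p = 7.69e-04). Hist4h4, the H4 gene outside the large clusters, shares 0.0375% of its 32-base words with other members and 11.1% with other annotated genes of any kind. Per library it held 6 to 19 counts in the first set against 1 to 9 in the last, and it fell by 1.65 on the log2 scale (SE 0.23, edgeR adjusted p = 1.51e-05). It met the low-count filter only through the first set, so its fall is a description of a gene that could only differ downward.

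H2B had the smallest median difference of the 5 classes, and its 4 genes with the highest CPM did not pass. Hist1h2bc held 66.1 to 110 CPM in the first set (median 79.7) and 51.8 to 99.3 in the last (median 69.0), with a log2 fold change of -0.19 (SE 0.10, edgeR adjusted p = 0.168). Hist1h2bq and Hist1h2br, whose counts were the same, and Hist1h2bl did not pass either (adjusted p = 0.124 and 0.0922). Without labelled MCF10A/miR-122 EV replicate 5, Hist1h2bc passed (log2 fold change -0.25, adjusted p = 0.0454). Set against Hist1h2bc in the same library, the related copies parted. Hist1h2bl stood at a mean of 40.0% of the Hist1h2bc count in the first set and 39.4% in the last. Hist1h2bh stood at 24.3% and 17.6%. Hist1h2bm stood at 25.3% and 20.5%, and its ranges did not meet (24.1% to 27.1% and 19.5% to 21.9%). Hist2h2be, an H2B gene with 1.74% of its words in other members and 2.55% in other annotated genes, fell by 0.52 on the log2 scale (SE 0.13, edgeR adjusted p = 0.00499).

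Hist1h2ak, an H2A gene, had the smallest p of the family. It held 4.83 to 7.65 CPM in the first 12 libraries (median 5.84), or 128 to 214 counts, and 0.267 to 0.959 CPM (median 0.587), or 8 to 28 counts, in the last 12. The sets lay far apart. The fit gave a log2 fold change of -3.29 (SE 0.12, edgeR adjusted p = 4.28e-16), a 9.80-fold lower level. Hist1h2af followed, from 5.43 to 8.90 CPM (median 6.79) down to 1.13 to 2.74 (median 1.56), or -2.07 on the log2 scale (SE 0.11, adjusted p = 3.72e-13). Hist1h2ab held at least 7.20 CPM (median 8.52) in the first set and at most 5.22 (median 3.21) in the last. It fell by 1.42 on the log2 scale (SE 0.09, edgeR adjusted p = 1.79e-11).

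These unlike ratios went with like differences in absolute level. Between the set means Hist1h2ak lost 5.20 CPM (from 5.79 to 0.594). Hist1h2af fell by 5.24 CPM and Hist1h2ab fell by 5.41 CPM, and Hist1h2ac fell by 5.64 CPM. The 5 copies Hist1h2ad, Hist1h2ae, Hist1h2ag, Hist1h2ah and Hist1h2ai lay between the falls of Hist1h2af and Hist1h2ac. The excess of Hist1h2ab over Hist1h2ak was 2.88 ± 0.546 CPM (SD, n = 12) in the first set and 2.67 ± 0.613 in the last, or 61 to 94 and 61 to 114 counts. For Hist1h2af the excess was 1.09 ± 0.598 CPM in the first set and 1.05 ± 0.347 in the last. So, in these 8 rows, the difference between the sets came to nearly the same amount as in Hist1h2ak alone, and the mean excess over Hist1h2ak differed between the sets by less than 1 SD.

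Not all copies followed that pattern. Hist1h2ao and Hist1h2ap, indistinguishable from each other, lost 2.09 times as much as Hist1h2ak (10.9 and 10.8 CPM in the fall of each mean). Hist1h2an fell by 3.70 CPM, and its excess over Hist1h2ak rose from a range of 12 to 49 counts to one of 58 to 114. Outside the Hist1 cluster, the most abundant member, Hist2h2aa1, went from 109 to 163 CPM (median 137) to 93.7 to 144 (median 112), and fell by 0.24 on the log2 scale (SE 0.07, edgeR adjusted p = 0.00864). Hist3h2a, with 3.17% of its words in other members and 32.1% in other annotated genes, was the H2A gene that did not pass. Its ranges were 2.01 to 3.52 and 1.49 to 3.60 CPM (log2 fold change -0.15, adjusted p = 0.446).

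**Figure D3:**
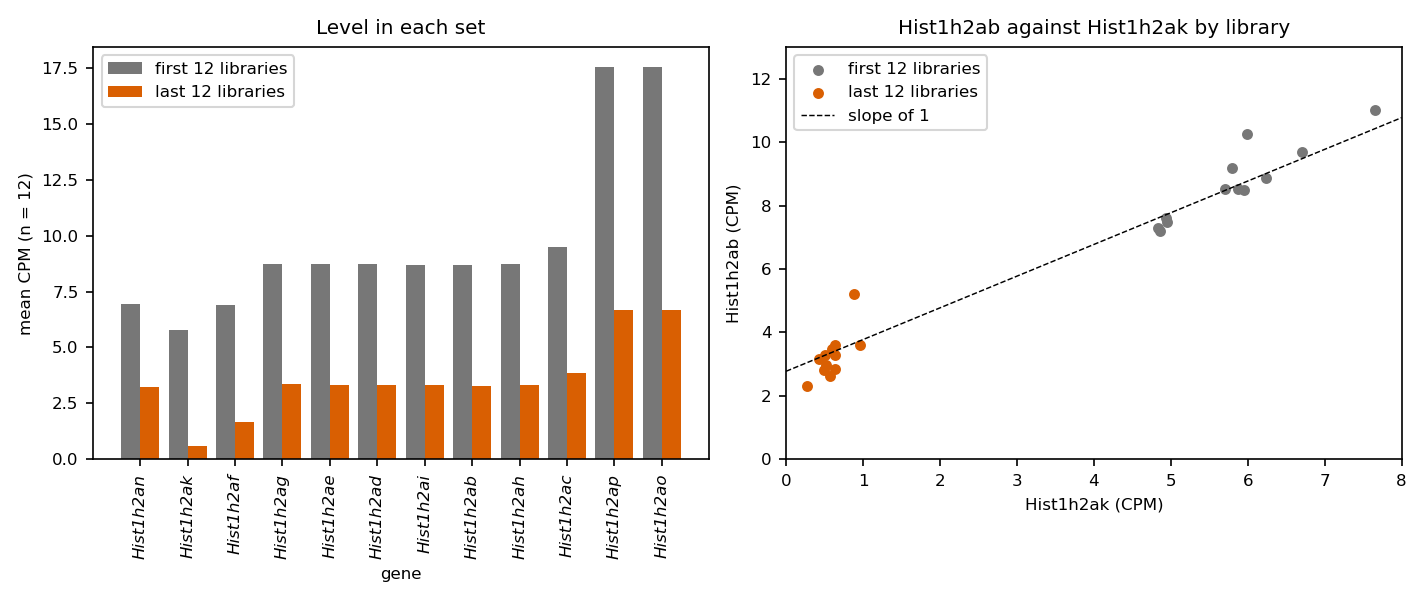
Left, mean CPM of 12 close Hist1 H2A copies in the first and last 12 libraries (bars from 0); right, CPM of Hist1h2ab (vertical axis) against Hist1h2ak (horizontal axis) with 1 point per library and a dashed line of slope 1. The 2 sets lie along the same line, near 5.79 and 0.594 CPM of Hist1h2ak.

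A smaller group was close to absent from the last set. Hist3h2ba, an H2B gene, summed to 142 counts over the first 12 libraries and 6 over the last 12, with 7 to 20 and 0 to 2 counts per library. Hist3h2bb-ps, a pseudogene of the same class, held 136 and 2 counts. Hist1h2aa, an H2A gene known from testis, had too few counts to be tested and held 85 and 2 counts. In the last set these 3 genes were above 0 in 5, 2 and 2 of 12 libraries, so each met the rule of 6 libraries above 0 only through the set where it was high. Their counts are therefore a description, and no fold change is given. All other untested genes stayed at or below 11 counts in every library.

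Both labelled groups were compared with PBS, across the sets and with the same 6 PBS libraries, so the results are given side by side. In labelled MCF10A/miR-122 EV, 38 of 63 histone genes fell and none rose, against 9.53% of all genes called lower; 22 did not overlap with PBS, against 3.48% of all genes. The median log2 fold change was -0.67. In labelled MDA-MB-231 EV, 30 of 63 fell and none rose, against 6.34% of all genes called lower, and 24 did not overlap, against 3.23%. The median was -0.57. All 30 were also called in the other group. Over the 58 genes that met the filter in both sets, 33 and 25 fell (medians -0.58 and -0.42), against 9.44% and 6.19% of all genes that did so. The 22 and 24 without overlap both include Hist3h2ba, Hist3h2bb-ps and Hist4h4, which met the filter only through the first set. By class the calls were 3 and 2 of 3 H1 genes, 14 and 14 of 17 H2A, 5 and 3 of 19 H2B, 12 and 10 of 12 H3, and 4 and 1 of 12 H4.

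**Figure D4:**
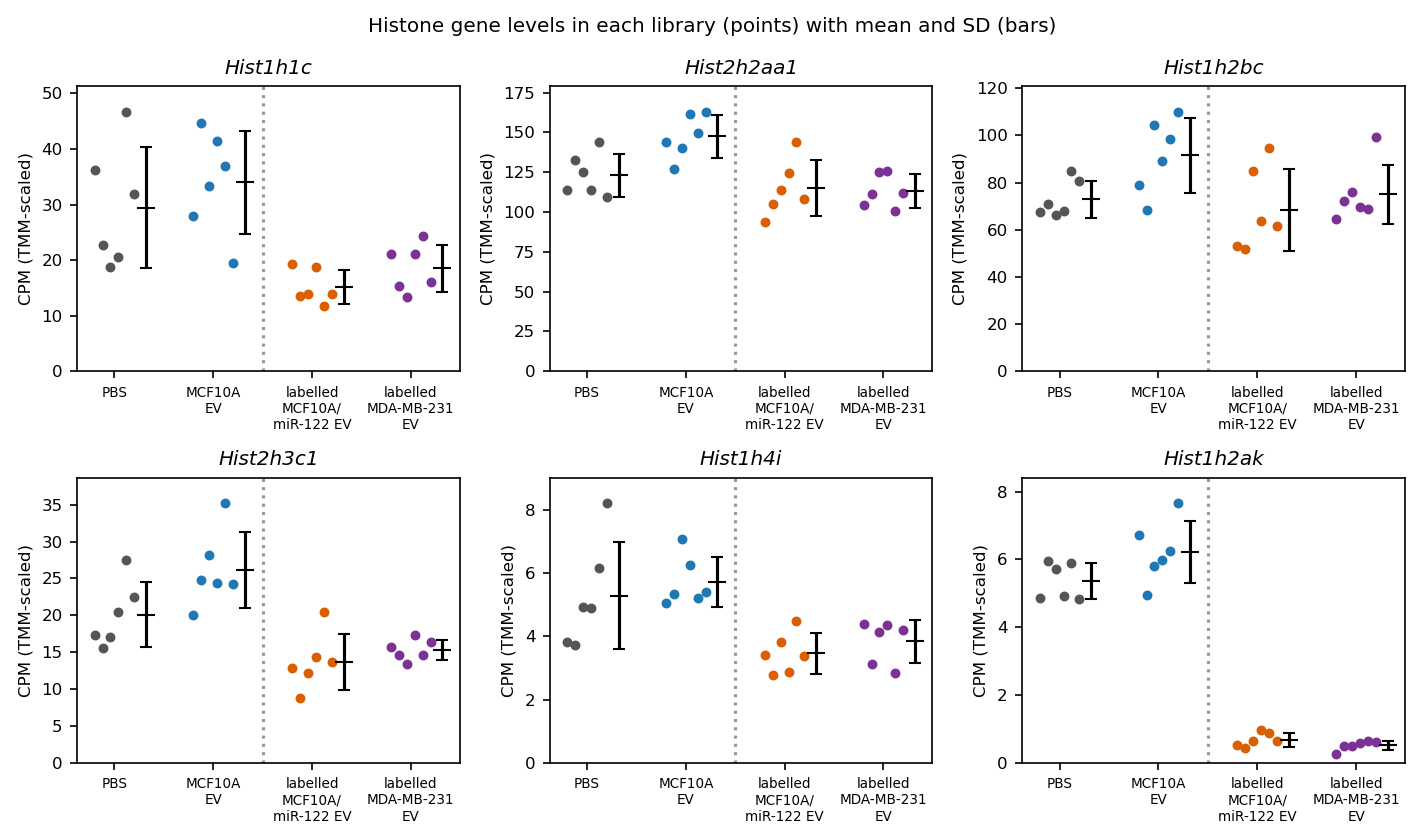
CPM (vertical axes, from 0) of the gene with the highest mean CPM in each class and of Hist1h2ak in every library of the 4 groups. Points are libraries, bars are mean and SD of 6, and the dotted line parts the 2 sets; Hist1h2ak lies at 4.83 CPM or more left of the line and at 0.959 or less right of it.

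For Hist1h2ak, PBS held 4.83 to 5.95 CPM (median 5.32), labelled MCF10A/miR-122 EV 0.433 to 0.959 (median 0.632) and labelled MDA-MB-231 EV 0.267 to 0.636 (median 0.539). Fitted levels were 7.97-fold and 10.4-fold lower than in PBS (SE of the log2 value 0.17 and 0.18), with edgeR adjusted p of 8.05e-12 and 1.28e-12. For Hist1h1c, PBS held 18.7 to 46.7 CPM (median 27.3), and the labelled groups 11.7 to 19.4 (median 13.9) and 13.4 to 24.3 (median 18.6). All 12 libraries lay below the PBS median, with log2 fold changes of -0.95 (SE 0.22, edgeR adjusted p = 0.00360) and -0.66 (SE 0.21, adjusted p = 0.0432). The second call was lost without PBS replicate 1, 5 or 6, without labelled MDA-MB-231 EV replicate 2, 3, 4 or 6, with limma-voom, or with the 2 groups fitted alone (adjusted p from 0.0535 to 0.119).

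Hist2h3c1 held 15.6 to 27.4 CPM in PBS (median 18.9), 8.84 to 20.4 in labelled MCF10A/miR-122 EV (median 13.3) and 13.4 to 17.3 in labelled MDA-MB-231 EV (median 15.1). It fell in the former (log2 fold change -0.55, edgeR adjusted p = 0.0173), where 5 of 6 libraries lay below the PBS median. In the latter it did not pass (-0.39, adjusted p = 0.110), although all 6 lay below that median. Hist1h4i likewise fell in the former (-0.61, adjusted p = 0.0144) and had a log2 fold change of -0.46 in the latter (adjusted p = 0.0770). Fitted on the 2 compared groups alone, both genes lost the call in labelled MCF10A/miR-122 EV (adjusted p = 0.0546 and 0.0507) and Hist2h3c1 gained one in labelled MDA-MB-231 EV (adjusted p = 0.0430). For Hist1h4i a call in labelled MDA-MB-231 EV was gained without PBS replicate 1 or 2 (adjusted p = 0.0465 and 0.0431). The most abundant genes did not pass in either comparison. Hist2h2aa1 had log2 fold changes of -0.10 and -0.12 (SE 0.09 in both), and Hist1h2bc had -0.09 and 0.04 (SE 0.14 in both).

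**Figure D5:**
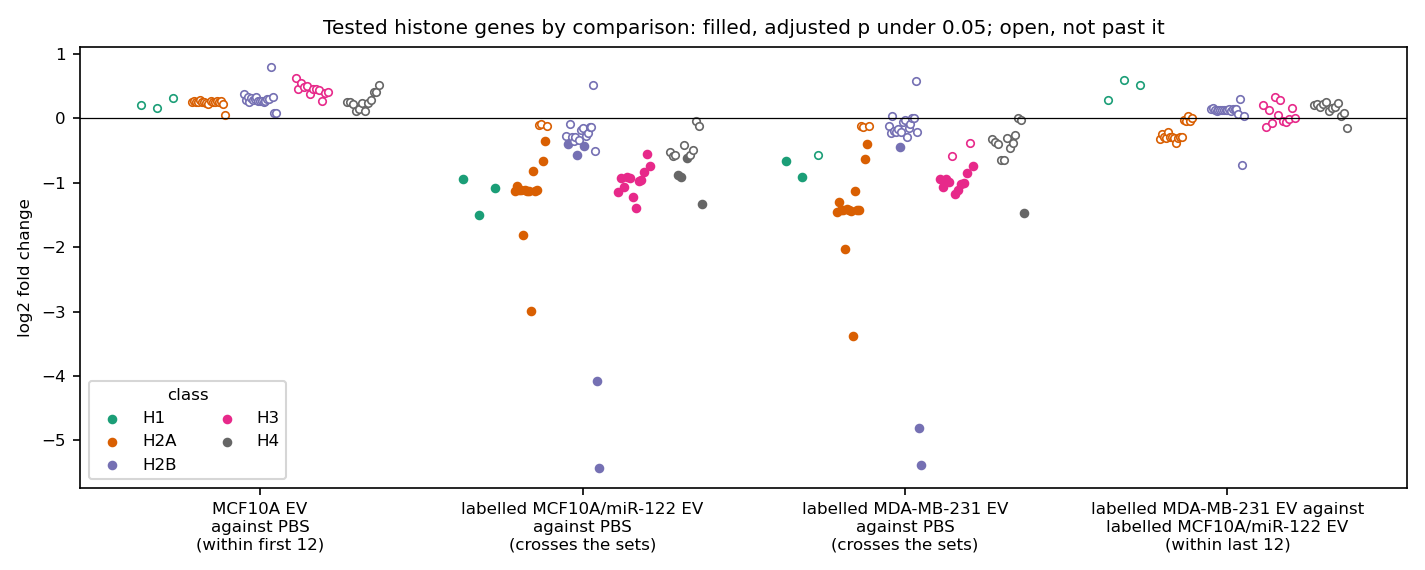
The log2 fold change (vertical axis) of the 63 tested histone genes in 4 comparisons (horizontal axis), by class. Filled points passed an adjusted p of 0.05: 38 and 30 genes in the comparisons that cross the sets, and 0 in those within a set. Hist1h3a, Hist1h3c, Hist3h2ba, Hist3h2bb-ps and Hist4h4 met the low-count filter only through the first set and could only differ downward across the sets.

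Within the last set, the labelled groups did not differ in any histone gene past the threshold. Of 63 genes 0 passed in edgeR, DESeq2 or limma-voom, and edgeR called 0.254% of all genes. At an unadjusted p of 0.05 in edgeR, 11 passed, against 8.19% of all genes. Those 11 were 9 H2A genes with lower and 2 H1 genes with higher levels in labelled MDA-MB-231 EV. Over all 63 the median log2 fold change was 0.11, with 39 positive and 24 negative. For Hist1h1d, labelled MCF10A/miR-122 EV held 0.666 to 1.40 CPM (median 0.942) and labelled MDA-MB-231 EV 0.989 to 1.91 (median 1.58), or 0.59 higher on the log2 scale (SE 0.27, edgeR adjusted p = 0.561). For Hist1h2ab the values were 2.96 to 5.22 CPM (median 3.43) and 2.30 to 3.46 (median 2.82), with -0.33 on the log2 scale (SE 0.13, edgeR adjusted p = 0.430). With identities taken from the library names, all signs of this comparison turn.

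Promoters were read from RefSeq (GRCm38.p6), where 61 of the 68 genes matched an entry of 250 bases before to 50 after the start. Letters were sought on both strands: CCAAT, bound by the factor NF-Y; TATAAA, the TATA box; and ATTTGCAT, the octamer that Oct1 binds in H2B promoters. CCAAT stood in 85.2% of the members' promoters against 37.4% of 32851 promoters, in all of the H1, H2A, H2B and H3 genes and in 3 of 12 H4 genes. TATAAA stood in 57.4% against 13.6%, and ATTTGCAT in 23.0% against 1.74%, all in H2A (7 of 17) and H2B (7 of 16) genes. Some windows overlap, so a match in a shared stretch was counted for both genes, as the TATAAA of Hist1h2ak was for Hist1h2bn. A match describes letters and is no evidence of binding.

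In 9 pairs, an H2A and an H2B gene face away from each other and their windows overlap by 220 to 279 bases. The window of Hist1h2ak is shown because it overlaps that of Hist1h2bn by 263 bases, while the levels of these genes moved unequally. It lies at chr13:21753863-21754162 of GRCm38.p6, minus strand, with CCAAT (either strand) and TATAAA in capitals.
Hist1h2ak: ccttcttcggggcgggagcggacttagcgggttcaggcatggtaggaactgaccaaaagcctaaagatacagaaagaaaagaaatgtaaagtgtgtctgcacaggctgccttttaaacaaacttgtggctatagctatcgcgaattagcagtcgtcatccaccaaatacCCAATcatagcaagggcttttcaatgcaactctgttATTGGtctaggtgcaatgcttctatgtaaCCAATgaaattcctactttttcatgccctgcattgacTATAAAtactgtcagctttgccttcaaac
In the last against the first 12 libraries, Hist1h2ak fell by 3.29 on the log2 scale and Hist1h2bn fell by 0.34 (edgeR adjusted p = 0.0104). In the pair Hist1h2ai and Hist1h2bl the H2A gene fell by 1.40, and the H2B gene had -0.22 and did not pass. The 8 pairs in which both genes were tested all had the larger fall in the H2A gene, from 1.11 for Hist1h2an to 3.29 for Hist1h2ak, with -0.21 to -0.44 in the H2B partner. Since the copies share reads, these pairs are not independent, and the difference within a pair was not tested.

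Among all genes tested, 24.7% were called between the sets in either direction. The calls among genes that make, carry or replace these histones were not tested against that share. Of 17 tested factors of histone transcription and 3' end processing, 1 fell, the scaffold Sympk (log2 fold change -0.22), and none rose. Slbp, the stem-loop binding protein, had 0.12 and did not pass (edgeR adjusted p = 0.162). Of 10 tested genes listed as replication-independent histones, 2 fell: the linker histone H1f0 (-0.27) and the DNA damage variant H2afx (-0.29). Which of their messages carry polyA tails was not tested. Their list had a median log2 fold change of 0.03. Of 13 tested chaperones 3 rose, among them the H1 and H3 chaperone Nasp (0.29) and Atrx (0.20), and 1 fell, Daxx (-0.30), which deposits H3.3 together with Atrx. Of 29 tested genes of DNA replication and the cell cycle 3 rose, among them the cyclins Ccne1 (1.49) and Ccne2 (0.50), which start S phase. The helicase subunit Mcm7 (-0.27) was the 1 that fell, and the list's median was 0.13. Against PBS alone the list leaned the other way. In labelled MCF10A/miR-122 EV 6 fell and 1 rose (median -0.27), where 9.53% of all genes were called lower. In labelled MDA-MB-231 EV 2 fell and 0 rose (median -0.17), where 6.34% of all genes were called lower.

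Other cell types were read from their markers in the same libraries. Macrophage markers (11 of 11 in the table) summed to 287 to 370 CPM in libraries of the first set, against 251 to 760 in the last. Of these, 7 of 11 rose in labelled MCF10A/miR-122 EV against PBS and 0 of 11 in labelled MDA-MB-231 EV against PBS (median log2 fold changes 0.47 and 0.04, edgeR). At an unadjusted p of 0.05 in edgeR, 11 of 11 passed in the former and 2 of 11 in the latter, against 31.4% and 26.9% of all genes. Between the labelled groups 3 of 11 were lower in labelled MDA-MB-231 EV, and all 11 were negative. There 0.254% of all genes were called in either direction. In the contrast of the sets, which pools both groups, 5 of 11 rose, where 24.7% of all genes were called in either direction. Endothelial markers (8 of 8) summed to 170 to 256 and 114 to 281 CPM, with none called. Erythroid markers (10 of 13) summed to 516 to 2736 and 513 to 2087 CPM, again with none called. Neutrophil and progenitor markers (10 of 11) summed to 14 to 156 and 20 to 79 counts per library, and 3 were tested. Of these S100a8 and S100a9 fell, the latter by 1.14 on the log2 scale, and the other had 0.56 and was not called. S100a8 was highest in PBS replicate 3 and MCF10A EV replicates 4 and 5 (30, 38 and 44 counts). Lymphocyte markers (10 of 10) summed to 6.46 to 9.72 and 6.32 to 12.4 CPM. Of 3 tested, Cd79b was higher by 0.55 and the others were not called. Their part in the histone differences was not tested.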

How the data were processed

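Liver RNA was made into 24 stranded mRNA libraries, per the labels' protocols. The authors deposited raw read counts per gene symbol, without normalization. The submitters' processing notes name bcl2fastq 2.18.0.12, TopHat2 and mouse build mm9. Counting tool, annotation, strand setting and the treatment of multiply mapped reads: not given in the sources used here. The 27 rows that share 11 symbols (0.0744% of counts) were left out.

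Counts were fitted with edgeR 4.0.16 (R 4.3.3; TMM, filterByExpr with a minimum count of 10, 1 mean per group, all 24 libraries, quasi-likelihood F test, two-sided), and tested on simulated data beforehand. The set contrast is the mean of the last 2 group means minus that of the first 2. SE was derived from F, and the biological coefficient of variation was 16.8%. Alternatives were DESeq2 1.42.0, limma-voom (limma 3.58.1), RLE size factors, other filters, the compared groups alone, a replicate block, identities from the library names and each library left out. Genes named are the 10 with the highest mean CPM, the leader of each class, up to 10 with the smallest p per comparison and up to 3 per gene list. Hist1h1a, Hist1h1b, Hist1h1d, Hist1h1e, Hist1h1t, Hist1h2ag, Hist1h2an, Hist1h2bh, Hist1h2bj, Hist1h2bm, Hist1h2bn, Hist1h3g, Hist2h2be, Hist2h3c2, Hist2h4, Hist1h3a, Hist1h3c, Hist1h4n, Hist3h2a, Hist4h4, Hist1h2aa, Slbp and Serpina3a are named outside that rule. The members and lists were chosen with earlier results of these data known.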

Additional observations from a re-analysis of the deposited data

Results flagged for a closer look

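Dixon's test of the gap over the range, at its 95% critical value for 6 libraries, was run on 120 groups of 6 values. These were the histone genes named by rule, and the summed CPM of the family and of each class, by group. It marked 13, all of single genes, where chance marks about 1 in 20. The 13 are not independent, since the genes share reads. For 9 Hist1 H2A genes the same library, labelled MCF10A/miR-122 EV replicate 5, stood above the other 5 of its group: Hist1h2af at 2.74 CPM (others 1.51 to 1.68), Hist1h2ab at 5.22 (2.96 to 3.62), Hist1h2ac at 5.79 (3.52 to 4.15), Hist1h2ad at 5.34 (2.92 to 3.70), Hist1h2ae at 5.26 (2.92 to 3.66), Hist1h2ah at 5.30 (2.96 to 3.68), Hist1h2ai at 5.18 (2.96 to 3.66), and Hist1h2ao and Hist1h2ap at 10.6 each (5.91 to 7.53). All 9 values lay below the first set's lowest library for the same gene. Hist1h2bc stood at 99.3 CPM in labelled MDA-MB-231 EV replicate 6, above 64.4 to 76.2 in the others. Hist3h2ba stood at 0.632 CPM in PBS replicate 2, above 0.360 to 0.435. The pseudogene Hist3h2bb-ps stood at 0.0342 CPM in labelled MCF10A/miR-122 EV replicate 4 and 0.0360 in labelled MDA-MB-231 EV replicate 2, each a single count where the others of the group held 0.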

How the results depend on the processing

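The number of histone genes called in each comparison stayed within 1.5 times its value under every alternative run, save that leaving out 1 library gave 0 to 1 calls in MCF10A EV against PBS (1 higher, without PBS replicate 5). Leaving out 1 library gave 37 to 44 calls for labelled MCF10A/miR-122 EV against PBS, 26 to 31 for labelled MDA-MB-231 EV against PBS, 52 to 59 between the sets and 0 between the labelled groups. Replicate numbers gave little sign of pairing the libraries. The median correlation of deviations was 0.0347 for same-numbered pairs and -0.044 for pairs of different number. Of the same-numbered pairs 13 of 36 exceeded 0.1, against 56 of 180 of different number. By replicate number the medians ran from -0.0529 to 0.161, and 4 of 24 libraries correlated best with their own number. With a replicate block the counts were 0, 42, 30, 0 and 58 (MCF10A EV, labelled MCF10A/miR-122 EV and labelled MDA-MB-231 EV against PBS, the labelled groups, the sets). Signs turned with identities from the library names, which swap the labelled groups: Hist1h2bc had 0.041 and -0.094 against PBS, and between the groups Hist1h1c had -0.29, Hist2h2aa1 0.021, Hist1h2bc -0.13, Hist2h3c1 -0.16 and Hist1h4i -0.15. Signs also turned for Hist1h2bc in labelled MDA-MB-231 EV against PBS without replicate 6 of that group (-0.056; range over single libraries left out -0.056 to 0.088), and for Hist2h2aa1 between the labelled groups without MCF10A/miR-122 EV replicate 5 (0.048) or MDA-MB-231 EV replicate 5 (0.011; range -0.074 to 0.048); none was called in either setting, and the cause was not tested. With no filter Hist1h1t, at 0 to 5 counts, was called higher in the last 12 libraries (log2 fold change 1.86, adjusted p = 0.0203 by edgeR). Calls across all genes in MCF10A EV against PBS ranged far more, from 147 to 741 without PBS replicate 5. The counts of cell cycle genes with a library left out, and of genes that met the filter in each set, were added after seeing the data. Depth limits the H3 and H4 genes, many under 2 CPM.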
